A study of Homo sapiens with 12 samples.

Results

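ABCA12, UCN2, EXOC3L4, TNC, AMIGO2, LIPG and TGM2 were chosen by their measured values in these arrays: on each of the 4 slides the IL-1β array gave a higher signal, and the Empa array a lower one, than the control array beside them, and the differences were large. They are 7 of the 15717 genes tested, and their 8 probes are 8 of the 33483 probes with a value on all 12 arrays. Of those 33483 probes, 272 (0.812%) had these signs on all 4 slides, and all 8 probes of these genes are among them, as the choice requires. The differences from control are therefore given below as a description without a test.

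The 12 one-color oligonucleotide arrays hold total RNA of 2 human proximal tubular cell (HPTC) lines. Papillomavirus genes immortalized the HK-2 line and telomerase the RPTEC/TERT1 line. Cells of either line had been kept without serum and growth supplements for 24 h, and all groups share this. They then received no ligand (control), the pro-inflammatory cytokine IL-1β at 10 ng/mL, or the SGLT2 inhibitor empagliflozin (Empa) at 500 nM. This lasted another 24 h, in biological duplicates, which gives 6 groups of 2 arrays. In fits of these 6 groups, p-values measure the spread between the 2 arrays of a group only. Within its treatment, each array was most like an array of the other line label, as given below for the controls. That spread is therefore not one between closely alike replicates. Where 1 effect per ligand was fitted over the 4 slides, p-values also take in differences between the lines in that effect. No array holds cells that received both ligands, so the IL-1β and Empa differences come from separate cultures compared with a shared control. Each of the 4 slides carries the control, IL-1β and Empa arrays of 1 line and 1 replicate number, and the slides are called HK-2 replicate 1, HK-2 replicate 2, RPTEC/TERT1 replicate 1 and RPTEC/TERT1 replicate 2. Levels are log2 signals relative to the 75th percentile of the same array, so a level of 0 equals that percentile. The percentile was between 297.7 and 765.4 signal units, and the scanner software marked 53.5% to 63.1% of probes as well above background. Against control, the Empa array's percentile was higher on HK-2 replicate 2 (723.3 against 357.9) and RPTEC/TERT1 replicate 2 (466.9 against 297.7), and lower elsewhere. Unscaled Empa signals on HK-2 replicate 2 were above control for ABCA12, TNC (345 against 319), AMIGO2 (5780 against 4670) and both TGM2 probes. They were below it for UCN2, EXOC3L4 and LIPG. On RPTEC/TERT1 replicate 2 all were below it, LIPG narrowly (235 against 236).

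The line labels did not match the similarity of the arrays. Over 15329 probes that were measurable on every array, the control array of HK-2 replicate 1 correlated best with that of RPTEC/TERT1 replicate 2 (r = 0.98), and the control array of HK-2 replicate 2 with that of RPTEC/TERT1 replicate 1 (r = 0.97). Arrays that share a line label correlated with r = 0.88 (HK-2 controls) and r = 0.88 (RPTEC/TERT1 controls). The source label names HK-2 on all 12 arrays, so every value below is given by slide, and line names are those of the titles. Every array had signal well above background for the epithelial genes KRT8, KRT18, EPCAM and PAX8 and for the proximal tubule markers LRP2, GGT1 and SLC5A2, whereas none had it for HNF4A, CUBN and SLC22A6. E-cadherin (CDH1) had control levels of 2.81 (HK-2 replicate 1) and 2.98 (RPTEC/TERT1 replicate 2), but of -5.40 and -5.72 on the other slides. The 7 fibroblast markers summed to between 33.8 and 100 signal units per array on the slides with high CDH1 and to between 2030 and 4850 on the others, where control levels of DCN were 2.69 and 2.69 and those of LUM 1.65 and 1.70. COL1A1 went the other way, with control levels of -2.84 and -3.07 on the slides with high CDH1 and of -4.41 and -4.61 on the others. By treatment, the fibroblast sum was between 69.9 and 4090 on control arrays, between 86.2 and 4850 on IL-1β arrays and between 33.8 and 2600 on Empa arrays. COL1A2 and PDGFRB were not well above background on any array. With IL-1β the 13 proximal tubule markers summed to less than in the control array on every slide (4170 against 7480 units on HK-2 replicate 1, 4080 against 7190 on RPTEC/TERT1 replicate 2, 1600 against 2190 on RPTEC/TERT1 replicate 1 and 1620 against 2630 on HK-2 replicate 2), and so did the epithelial markers (13900 to 32400 against 17300 to 39000 units). The members of these lists did not move together. DPP4, the brightest proximal tubule marker on the control arrays of HK-2 replicate 1 and RPTEC/TERT1 replicate 2, differed by -1.36 and -1.59 there. It differed by -0.15 on RPTEC/TERT1 replicate 1 and by 0.10 on HK-2 replicate 2. ANPEP was higher with IL-1β on the first pair of slides, by 2.26 and 2.22. The epithelial marker PAX8 was also higher there, by 1.22 and 1.06. LRP2 was lower with IL-1β with the replicate block, in which each slide is a block (-2.44 ± 0.19, SE, adjusted p = 0.0035, limma). Without a block the same difference had an SE of 0.60 and did not pass (adjusted p = 0.266, limma). CDH1 differed by -3.35 and -3.90 with IL-1β on the slides where it was measurable. The 5 leukocyte markers, of which CD3E was well above background on 2 arrays and PTPRC and CD68 on all, summed to 502, 204, 1020 and 1110 units on the control arrays of HK-2 replicate 1, RPTEC/TERT1 replicate 2, RPTEC/TERT1 replicate 1 and HK-2 replicate 2. These sums were 886, 648, 1040 and 767 with IL-1β and 213, 151, 900 and 725 with Empa, so they were lower with Empa on every slide and higher with IL-1β on all but HK-2 replicate 2. The single leukocyte markers did not move together. With IL-1β on HK-2 replicate 1, CD68 differed by 2.57, but CD14 by -1.15, ITGAM by -1.85, PTPRC by -0.24 and CD3E by -0.29. With Empa, CD68 was lower on every slide, whereas CD14 was higher on all but HK-2 replicate 1. The part of these differences between slides and treatments in the levels below was not tested, and in bulk RNA fewer cells that express a gene and less of its RNA per cell cannot be told apart.

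IL-1β binds its receptor on tubular cells and activates NF-κB and AP-1, transcription factors that switch on chemokines, cytokines and matrix genes. Empa blocks the glucose and sodium uptake by SGLT2 (encoded by SLC5A2) in the brush border of the proximal tubule. The 7 genes belong to no single pathway. ABCA12 and LIPG act on lipids, UCN2 encodes a peptide ligand, TNC and TGM2 encode proteins of the extracellular matrix and its cross-linking, AMIGO2 encodes an adhesion protein, and EXOC3L4 encodes a protein related to a subunit of the exocyst, which tethers secretory vesicles.

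Each gene except TGM2 has 1 probe on the array. The positions are those of the array annotation on hg19, and the first 30 of the 60 bases of each probe are shown, because every level below is the signal of that oligonucleotide and the 2 TGM2 probes differ in what they detect.
ABCA12, chr2:215796277-215796336, minus strand: atacaagtttgtcagctttggcatgactgt
UCN2, chr3:48599175-48599234, minus strand: agcattgtgtatatagcagacatggaggtc
EXOC3L4, chr14:103576830-103576889, plus strand: cagcttcaccctccagtctgaaagtgaaga
TNC, chr9:117783310-117783369, minus strand: caatacaaccagcccaaccatcggtccaca
AMIGO2, chr12:47470931-47470990, minus strand: tcttagcttttagcactattggtaatttca
LIPG, chr18:47118360-47118419, plus strand: tatagagccatccataaaatcctaagccct
TGM2 (transcript variant 2), chr20:36766446-36766505, minus strand: tgtgttcctggagcatttgttgaccgccaa
TGM2 (transcript variant 1), chr20:36757853-36757912, minus strand: ctccacaccagtggcctcgtggttattagc
The TGM2 probes lie on the same chromosome and strand and are annotated to different transcript variants, and where in the exons the probes lie was not analysed here. Of the 96 probe values, 81 were well above background, among them all 32 on IL-1β arrays, 26 of 32 on control arrays and 23 of 32 on Empa arrays, and none was saturated. The 3 probes of TNC, AMIGO2 and LIPG were so on every array, those of UCN2 and of TGM2 variant 2 on 10, that of EXOC3L4 on 9, and those of ABCA12 and of TGM2 variant 1 on 8.

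**Figure D1:**
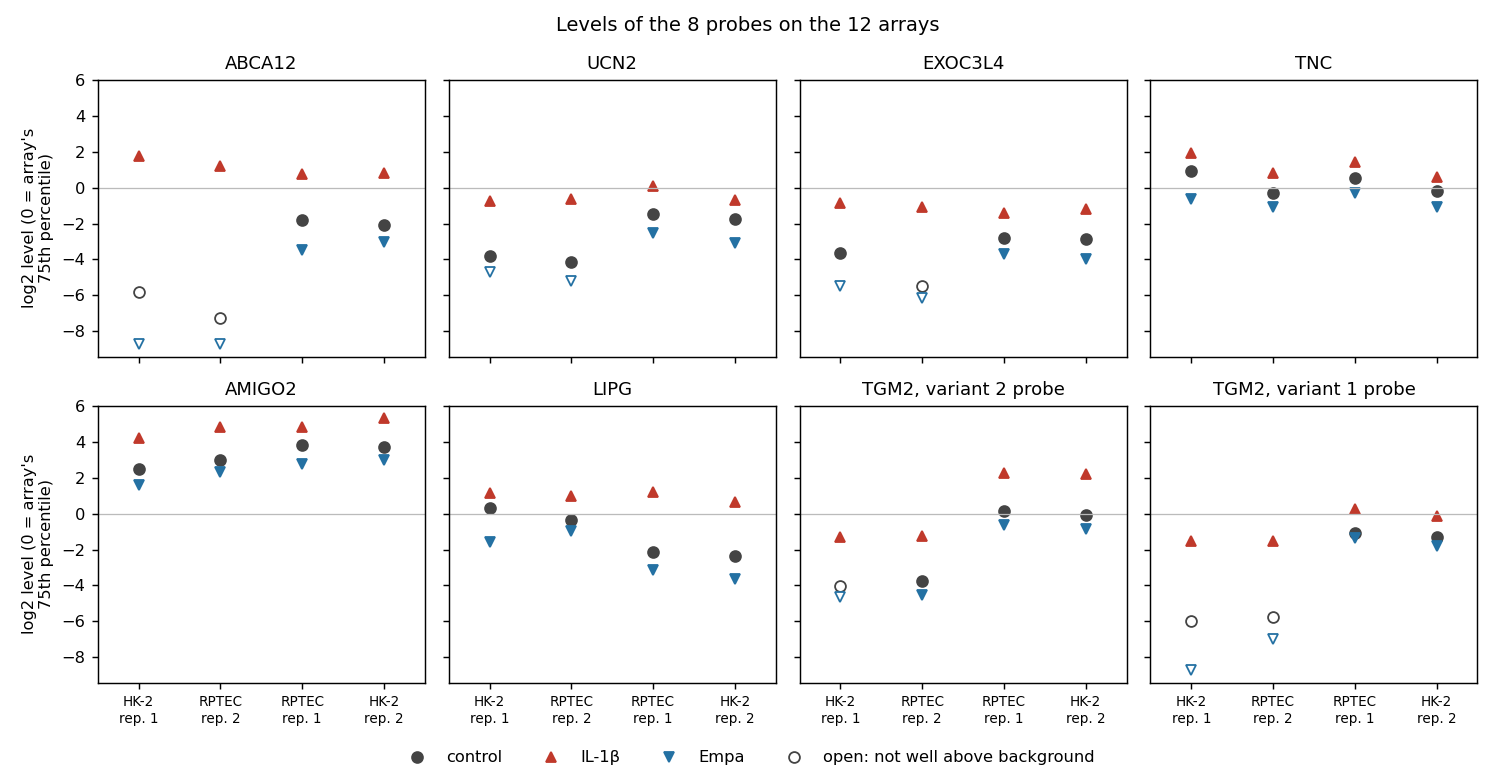
Log2 level of each of the 8 probes (y axis, 0 is the 75th percentile of the array) on the 4 slides (x axis), for control, IL-1β and Empa arrays; each symbol is 1 array, and open symbols were not well above background. ABCA12 control arrays span -7.25 to -1.79, while its IL-1β arrays lie between 0.76 and 1.74.

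ABCA12, a lipid transporter best known for loading lamellar granules in the skin, had the largest mean IL-1β difference of the 7 genes. Its control levels were -5.81 on HK-2 replicate 1, -7.25 on RPTEC/TERT1 replicate 2, -1.79 on RPTEC/TERT1 replicate 1 and -2.10 on HK-2 replicate 2, and the first pair was not well above background. With IL-1β the levels on these slides were 1.74, 1.19, 0.76 and 0.80, respectively. All 4 IL-1β arrays thus lay above all 4 control arrays, and they came to a similar level from controls that were far apart. ABCA12 was 5.86-fold and 7.45-fold of control on RPTEC/TERT1 replicate 1 and HK-2 replicate 2, and nominally 187-fold and 113-fold higher on HK-2 replicate 1 and RPTEC/TERT1 replicate 2. For nominal folds, here and below, the dim array was set to its lowest signal well above background or to the probe's own value, whichever was higher. A probe can be dim above that lowest signal, so nominal folds are not lower limits. The mean IL-1β difference of ABCA12 was 5.36 ± 3.07 (SD, n = 4), but 3.13 with normexp background correction and 2.66 in the authors' table. With Empa, ABCA12 was measurable on both arrays of RPTEC/TERT1 replicate 1 (0.32-fold, level -3.45) and HK-2 replicate 2 (0.52-fold, level -3.03). On the other slides the Empa arrays were at the floor of 1 signal unit and the controls were dim, so no fold is given there. The mean Empa difference of -1.74 ± 0.84 (SD, n = 4) includes these dim pairs, and it was -0.79 with a floor of 5 signal units and -0.38 in the authors' table.

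LIPG, which encodes endothelial lipase, an enzyme that cleaves phospholipids of high-density lipoprotein, was measurable on every array. Control levels were 0.30 on HK-2 replicate 1, -0.33 on RPTEC/TERT1 replicate 2, -2.11 on RPTEC/TERT1 replicate 1 and -2.38 on HK-2 replicate 2, so the slides with the dim ABCA12 controls had the higher LIPG controls. IL-1β arrays were at 1.15, 0.97, 1.19 and 0.66 on these slides, and Empa arrays at -1.56, -0.99, -3.15 and -3.66. The IL-1β arrays lay above all controls and close together, whereas the Empa arrays overlapped the controls of other slides. LIPG was 1.80-fold and 2.48-fold of control with IL-1β where its control level was high, and 9.82-fold and 8.20-fold where it was low. Its mean differences were 2.12 ± 1.22 with IL-1β and -1.21 ± 0.51 with Empa (SD, n = 4), the latter between 0.27-fold on HK-2 replicate 1 and 0.63-fold on RPTEC/TERT1 replicate 2. In the authors' table the mean Empa difference was -0.62.

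UCN2 encodes urocortin 2, a ligand of the corticotropin-releasing hormone receptor CRHR2. Its control levels were -3.79 on HK-2 replicate 1, -4.12 on RPTEC/TERT1 replicate 2, -1.46 on RPTEC/TERT1 replicate 1 and -1.72 on HK-2 replicate 2. IL-1β arrays were at -0.77, -0.63, 0.07 and -0.68, above all controls. The IL-1β difference was thus 8.14-fold and 11.2-fold on the slides with low controls and 2.88-fold and 2.06-fold on the others. Empa arrays were at -4.67, -5.18, -2.55 and -3.07, and the first pair was not well above background. That pair was nominally 1.84-fold and 2.08-fold lower than control, and RPTEC/TERT1 replicate 1 and HK-2 replicate 2 were at 0.47-fold and 0.39-fold. The mean Empa difference of UCN2 was -1.09 with the dim pair included, and -0.47 in the authors' table.

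CRHR2, the receptor of UCN2, was well above background on 6 of 12 arrays, with control levels between -5.99 and -3.59. UCN, a relative of UCN2 that also binds this receptor, was measurable on every array, and its IL-1β effect was -0.11 ± 0.63 (SE, adjusted p = 1, limma).

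EXOC3L4 is named for its similarity to the exocyst subunit EXOC3. Its control levels were -3.66 on HK-2 replicate 1, -5.47 on RPTEC/TERT1 replicate 2 (not well above background), -2.82 on RPTEC/TERT1 replicate 1 and -2.86 on HK-2 replicate 2. With IL-1β they were -0.86, -1.06, -1.42 and -1.20, which is above every control. EXOC3L4 was 6.96-fold of control on HK-2 replicate 1, nominally 21.2-fold higher on RPTEC/TERT1 replicate 2, and 2.64-fold and 3.18-fold on the remaining slides. With Empa it was at -5.45, -6.17, -3.71 and -3.97, and the first pair was dim. It was nominally 3.47-fold lower on HK-2 replicate 1 and at 0.54-fold and 0.47-fold on RPTEC/TERT1 replicate 1 and HK-2 replicate 2. No fold is given for RPTEC/TERT1 replicate 2, where control and Empa arrays were both dim. The mean differences were 2.57 with IL-1β and -1.12 with Empa with these dim arrays included, and 1.11 and -0.27 in the authors' table.

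TNC encodes tenascin-C, a glycoprotein of the provisional matrix that is deposited in injured tissue. It showed the smallest and most even IL-1β difference. Control levels were 0.91 on HK-2 replicate 1, -0.31 on RPTEC/TERT1 replicate 2, 0.55 on RPTEC/TERT1 replicate 1 and -0.17 on HK-2 replicate 2, IL-1β levels were 1.91, 0.84, 1.45 and 0.59, and Empa levels were -0.61, -1.07, -0.28 and -1.07. The lowest IL-1β array lay below the highest control array, so the groups overlapped even though each slide went the same way. TNC was between 1.69-fold and 2.21-fold of control with IL-1β (mean 0.95 ± 0.16, SD, n = 4) and between 0.35-fold and 0.59-fold with Empa (mean -1.01 ± 0.35). Both means were thus of similar size, also in the authors' table (0.82 and -0.75) and with normexp background correction (0.87 and -0.81), and its control levels did not follow the split of the slides.

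AMIGO2 encodes an adhesion protein with leucine-rich repeats and was measurable on every array. Control levels were 2.47 on HK-2 replicate 1, 2.97 on RPTEC/TERT1 replicate 2, 3.83 on RPTEC/TERT1 replicate 1 and 3.70 on HK-2 replicate 2. IL-1β arrays were at 4.20, 4.84, 4.80 and 5.30, all above the controls, and Empa arrays were at 1.57, 2.30, 2.76 and 3.00, which overlapped them. The IL-1β difference was between 1.95-fold and 3.65-fold of control (mean 1.54 ± 0.40, SD, n = 4), and the Empa difference between 0.48-fold and 0.63-fold (mean -0.84 ± 0.18).

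TGM2 encodes transglutaminase 2, which cross-links matrix proteins such as fibronectin. Its variant 2 probe had control levels of -4.05 (not well above background) on HK-2 replicate 1, -3.73 on RPTEC/TERT1 replicate 2, 0.16 on RPTEC/TERT1 replicate 1 and -0.10 on HK-2 replicate 2. The IL-1β levels were -1.31, -1.25, 2.24 and 2.21, and the Empa levels -4.64 (dim), -4.53, -0.63 and -0.87. Unlike those of ABCA12 and LIPG, the IL-1β arrays stayed nearly as far apart as the controls. TGM2 variant 2 was nominally 6.69-fold higher on HK-2 replicate 1, and 5.60-fold of control on RPTEC/TERT1 replicate 2 and 4.23-fold and 4.96-fold on the others. With Empa this probe was at 0.58-fold, 0.58-fold and 0.59-fold on the 3 slides where both arrays were measurable. With the dim arrays included, its means were 2.40 with IL-1β and -0.73 with Empa, and 1.40 and -0.44 in the authors' table.

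The variant 1 probe of TGM2 gave a less even picture. Its control was dim on HK-2 replicate 1 (-6.00) as well as on RPTEC/TERT1 replicate 2 (-5.75). The IL-1β arrays were nominally 19.6-fold and 17.5-fold higher there, against 2.48-fold and 2.18-fold on RPTEC/TERT1 replicate 1 and HK-2 replicate 2. With Empa this probe was at 0.80-fold and 0.70-fold on the latter slides and had no measurable pair on the former. Both probes had the same direction on every slide, as the choice requires, but on RPTEC/TERT1 replicate 1 and HK-2 replicate 2 both differences were smaller for variant 1 than for variant 2.

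**Figure D2:**
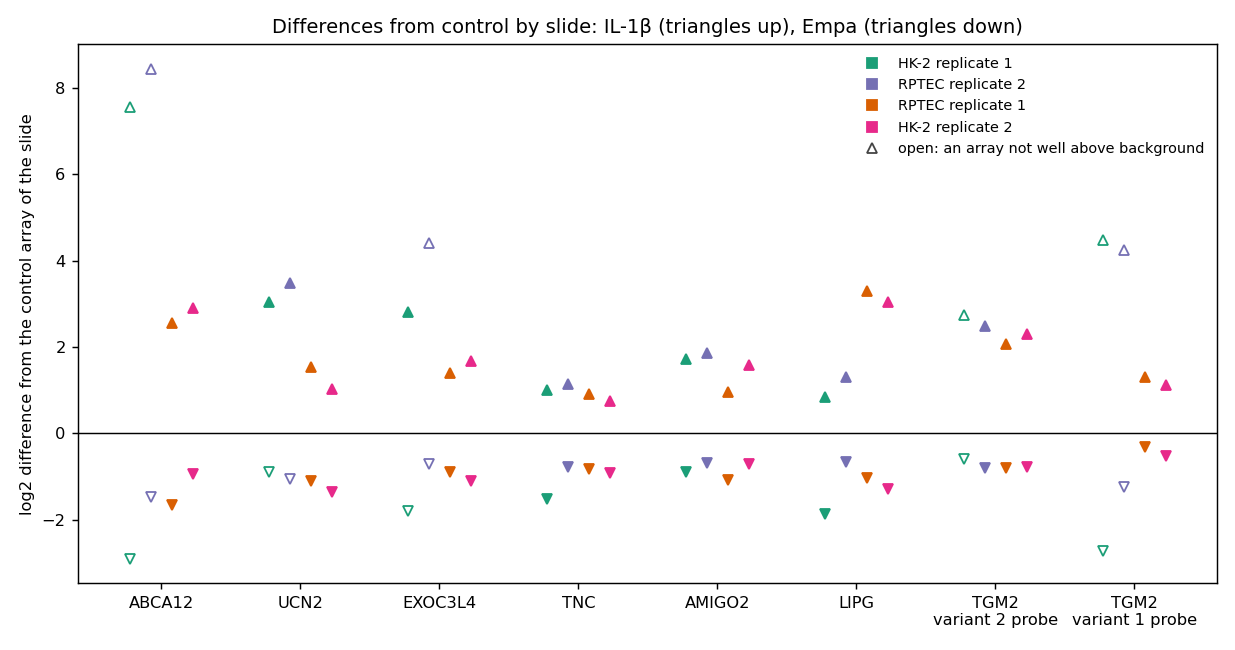
Log2 difference from the control array of the same slide (y axis) for each probe (x axis) with IL-1β (upward triangles) and Empa (downward triangles), 1 color per slide; open symbols have an array that was not well above background. All 32 IL-1β differences lie above 0 and all 32 Empa differences below it, as the choice of the genes requires; the largest IL-1β differences of ABCA12, UCN2 and EXOC3L4 are on HK-2 replicate 1 and RPTEC/TERT1 replicate 2. Those of LIPG are on the other slides.

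All IL-1β arrays lay above all control arrays for 5 of the 7 genes (ABCA12, UCN2, EXOC3L4, AMIGO2 and LIPG), where 3.65% of all 15717 genes did. All Empa arrays lay below all controls for 0 of the 7 genes, against 1.41% of all genes. Both counts rest on the contrasts that chose the genes, and nothing is read from them. The ranges over the 4 arrays of a treatment come from the same levels and are likewise given as a description. The range over the IL-1β arrays was smaller than over the control arrays in 6 of the 7 genes, TNC being the exception, and 49.1% of all genes tested had a smaller range with IL-1β. The control ranges of ABCA12 and EXOC3L4 include controls not well above background, and those of UCN2 and LIPG do not. It was 0.97 with IL-1β against 5.47 in control for ABCA12, 0.83 against 2.67 for UCN2, 0.56 against 2.65 for EXOC3L4 and 0.53 against 2.69 for LIPG. For AMIGO2 (1.09 against 1.36) and TGM2 variant 2 (3.55 against 4.22) the ranges were close. With Empa the range was smaller in 5 of the 7 genes, where 41.4% of all genes had a smaller one, and the ranges of ABCA12 (5.68), UCN2 (2.63), EXOC3L4 (2.45) and LIPG (2.67) were close to those in control.

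**Figure D3:**
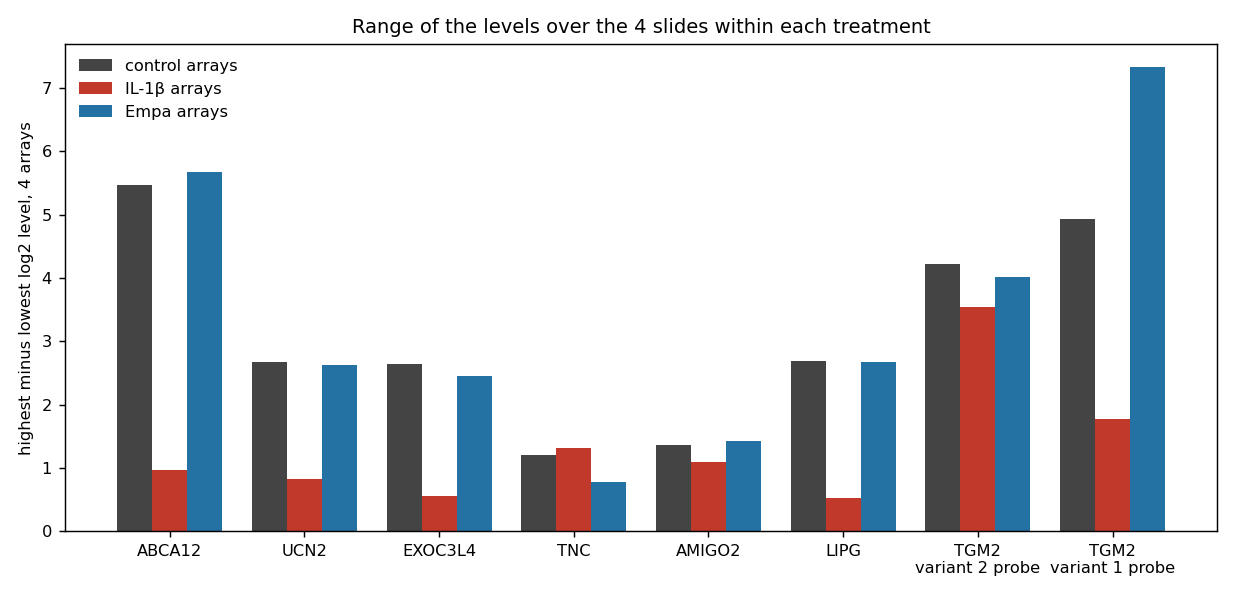
Highest minus lowest log2 level over the 4 arrays of each treatment (y axis) for each probe (x axis), with 1 bar per treatment. The IL-1β bars of ABCA12, UCN2, EXOC3L4 and LIPG are between 0.53 and 0.97, while their control bars are between 2.65 and 5.47.

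The lines were compared as labelled. By array similarity, each label holds 1 slide of either kind, and the difference between these kinds enters the spread in such fits. Counts of 0 here therefore cannot show whether the lines are alike. In limma no gene of the 15717 differed between the lines in the IL-1β effect (0%, 37 genes at an unadjusted p under 0.05), in the Empa effect (0%, 33 genes) or in the control level (0%, 171 genes). The choice required the same signs in both lines, so line differences in the effects of the 7 genes are given without a test. RPTEC/TERT1 minus HK-2, they were between -0.24 (AMIGO2 and TGM2) and 0.67 (EXOC3L4) for IL-1β and between -0.12 (TGM2) and 0.72 (LIPG) for Empa. Control levels, which also enter those effects, differed by between -0.88 (EXOC3L4, 95% interval -3.24 to 1.47) and 0.31 (AMIGO2, -1.18 to 1.81), with an adjusted p of 1 for all 7 genes in limma. These intervals leave room for large differences in either direction, since the slides of a line label were far apart. With the replicate block, 0 genes differed in the IL-1β effect (272 at an unadjusted p under 0.05) and 0 in the Empa effect (154).

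Over the 12 arrays, the levels of the 7 genes correlated with each other with r between 0.10 (LIPG and TGM2) and 0.97 (ABCA12 with UCN2 and with EXOC3L4) in 21 pairs. After the mean of each slide was removed, r was between 0.72 (ABCA12 and LIPG) and 0.99 (UCN2 and EXOC3L4). These arrays share treatments, slides and the choice of the genes, so the values describe them and are not tested. Of 15247 other genes, the levels most like those of ABCA12 were those of BATF3 (r = 0.99), AKR1B1 and COL7A1, and those most like UCN2 were TNFSF9 (r = 0.98), AKR1B1 and UBE2E2. For EXOC3L4 they were C9orf16 (r = 0.97), HDAC9 and SLCO2A1, for LIPG PDCL3 (r = 0.93), PLK3 and STK10, and for TGM2 EVA1A (r = 0.99), PLAT and DAZAP1. The nearest for AMIGO2 were a transcript without a gene symbol (r = 0.98), FOSL2 and JARID2, and for TNC an unnamed probe (r = 0.92), SYDE1 and AMD1. FOSL2 encodes an AP-1 subunit, BATF3 a relative of AP-1, and PLAT tissue plasminogen activator.

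Ordered by the smallest of their 8 measured differences, dim arrays included, ABCA12 (0.93), UCN2 (0.88), TNC (0.75), EXOC3L4 (0.70), AMIGO2 (0.67), LIPG (0.66) and TGM2 variant 2 (0.58) were at places 3, 4, 7, 8, 9, 10 and 12 of the 272 probes. TGM2 variant 1 (0.32) was at place 39. The places of UCN2, EXOC3L4 and TGM2 variant 2 rest on an Empa difference with at least 1 array not well above background. Probes of NR1H4, which encodes the bile acid receptor FXR, and of PTGS1, which encodes a prostaglandin synthase, stood above them (1.06 and 0.95), and IL4I1 (0.81), EBI3 (0.80) and C3 (0.61) stood between them. The first probe below TGM2 variant 2 was that of EDN1, the gene of endothelin-1 (0.58), and the first below TGM2 variant 1 was that of CAV3 (0.30). These 5 genes were not among those chosen, and the choice had no numeric limit. With each of the 8 differences over 1.5-fold, 11 probes remained, of which 6 are of these genes.

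**Figure D4:**
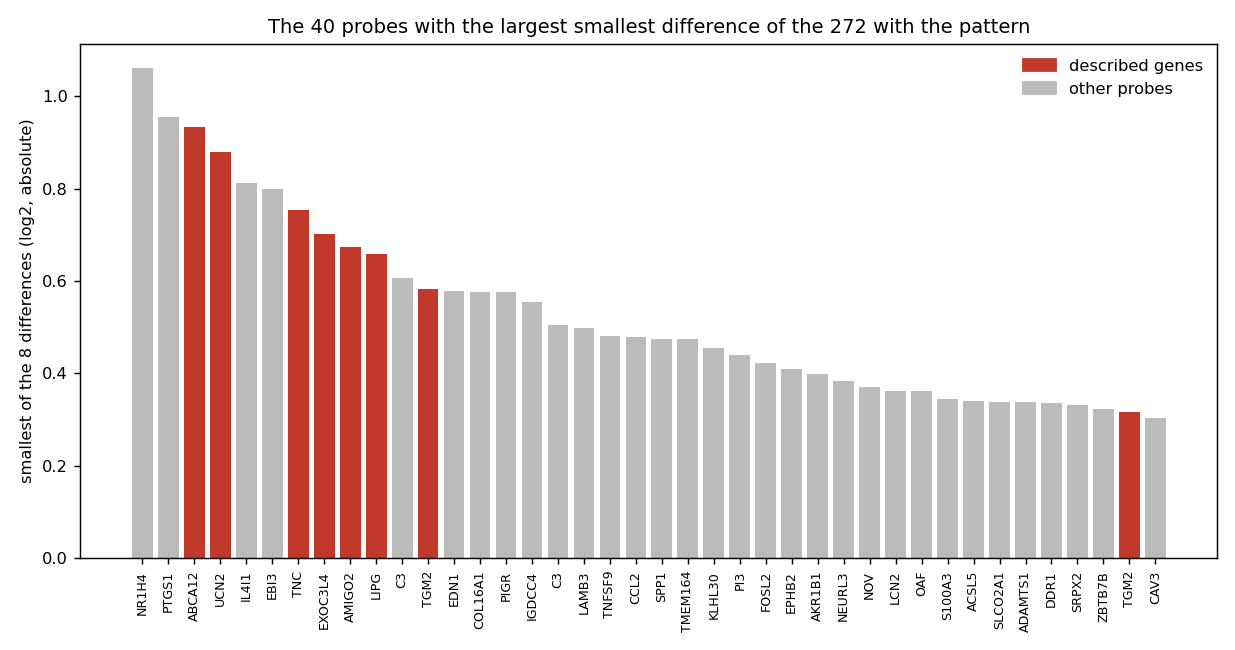
Smallest absolute log2 difference from control over 4 slides and both ligands (y axis) for the 40 probes with the highest value among the 272 with an IL-1β difference above 0 and an Empa difference below 0 on every slide (x axis, by gene symbol). Red bars are the 8 probes described here, from 0.93 (ABCA12) to 0.32 (TGM2 variant 1).

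Relatives of the 7 genes were examined in the same way. Of 78 genes listed from the same families, ligand systems and complexes, 43 were tested, and 0 had a positive IL-1β difference and a negative Empa difference on all 4 slides, where 0.812% of all probes had. The one with 7 of the 8 signs was FURIN, a protease that cleaves endothelial lipase, singled out after its values were seen, with IL-1β differences of 0.34, 0.33, 0.33 and -0.0023 and Empa differences between -1.24 and -0.10. TNFAIP2, an EXOC3-like relative, and SDC4, a syndecan, were not tested, because their spots were marked as outliers on 5 and 2 arrays. With these spots kept, an alternative chosen after seeing the data, TNFAIP2 had IL-1β differences between 1.33 and 4.40 and Empa differences of 0.02 on HK-2 replicate 1 and of -0.60, -0.64 and -0.59 elsewhere. SDC4 had IL-1β differences between 1.08 and 1.82 and Empa differences between -0.96 and 0.40. In limma 0 of the 43 passed the threshold with IL-1β (3 at an unadjusted p under 0.05) and 0 with Empa (0 at an unadjusted p under 0.05), and with the replicate block 0 and 0 passed as well (8 and 3). Their median effect was -0.11 with IL-1β and -0.02 with Empa, equal to the medians over all genes at 2 decimals. With 1 effect per ligand over the 4 slides and the slide as a block, 4 relatives were lower with IL-1β, where 7.91% of all genes were. These were the transporters ABCA2 (-0.87 ± 0.21, SE, adjusted p = 0.0309) and ABCA7 (-0.71 ± 0.16, adjusted p = 0.0234), AMIGO1 (-1.15 ± 0.32, adjusted p = 0.0484) and GPIHBP1 (-0.68 ± 0.19, adjusted p = 0.0447), which anchors lipoprotein lipase to capillaries.

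Closer relatives gave these values by slide. ABCA1, which exports cholesterol, had IL-1β differences of -0.93 (HK-2 replicate 1), -0.97 (RPTEC/TERT1 replicate 2), 1.37 (RPTEC/TERT1 replicate 1) and 1.15 (HK-2 replicate 2), so its sign followed the split of the slides. AMIGO1, an adhesion protein of the AMIGO2 family, had IL-1β differences between -1.50 and -0.76 on all 4 slides, opposite in sign to AMIGO2. LIPH was measurable on all arrays with IL-1β differences between -0.24 and 0.80, LIPC was well above background on 6 arrays, and LPL on none. TGM1 was well above background on 6 arrays, and TGM3, TGM5 and TNN on none. EXOC3, the exocyst subunit that EXOC3L4 resembles, had IL-1β differences between -0.45 and 0.42 and Empa differences between -0.50 and -0.12.

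The stimulation itself was visible in 14 tested genes known to respond to IL-1β, which include the chemokines CXCL8 and CCL20. Their median IL-1β effect was 5.42, against -0.11 over all genes. Of them, 1 gene (ZC3H12A, which encodes an RNase) was higher in limma (0.0318% of all genes were), and 10 with the replicate block (2.02% of all genes were higher and 3.47% lower). With Empa, 0 of 15717 genes passed in limma (0%, 205 at an unadjusted p under 0.05), also with the block (1444 at an unadjusted p under 0.05), and 2 passed in the methods' t-test. The IL-1β difference of CXCL8 was 10.2 (HK-2 replicate 1) and 9.87 (RPTEC/TERT1 replicate 2), against 3.68 (RPTEC/TERT1 replicate 1) and 4.33 (HK-2 replicate 2), the same division of slides as for ABCA12, UCN2 and EXOC3L4.

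The 250 bases before the annotated start were available for 6 of the 7 genes from RefSeq (GRCh38.p14). They were searched on both strands for the AP-1 element TGANTCA and for the κB consensus, since IL-1β acts through AP-1 and NF-κB. The AP-1 element was found in 2 of the 6 (UCN2 and AMIGO2), and 6.57% of 35116 promoters of that length hold it. The κB consensus was found in 1 (EXOC3L4), and 9.96% of the promoters hold it. These windows are shown with the matches in capitals, which for EXOC3L4 is the κB match and for the others the AP-1 match. AMIGO2 has a further annotated start nearby, whose window holds the same match.
EXOC3L4, chr14:103094475-103094724, plus strand: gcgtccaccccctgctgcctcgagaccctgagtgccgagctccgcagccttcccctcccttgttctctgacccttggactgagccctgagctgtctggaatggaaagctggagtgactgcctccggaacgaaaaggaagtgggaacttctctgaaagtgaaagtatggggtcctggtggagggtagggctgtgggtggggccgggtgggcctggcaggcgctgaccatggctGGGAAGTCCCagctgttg
UCN2, chr3:48563782-48564031, minus strand: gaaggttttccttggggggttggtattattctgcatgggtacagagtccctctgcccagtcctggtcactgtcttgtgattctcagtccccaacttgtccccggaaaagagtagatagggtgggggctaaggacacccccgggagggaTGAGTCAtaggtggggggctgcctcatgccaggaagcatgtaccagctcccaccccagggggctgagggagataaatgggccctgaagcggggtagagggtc
AMIGO2, chr12:47079952-47080201, minus strand: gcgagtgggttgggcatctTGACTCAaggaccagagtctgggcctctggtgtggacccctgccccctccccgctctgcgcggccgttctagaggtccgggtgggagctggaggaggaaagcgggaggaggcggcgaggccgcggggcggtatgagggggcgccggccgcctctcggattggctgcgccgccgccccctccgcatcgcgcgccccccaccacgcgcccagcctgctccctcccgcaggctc
The match begins 18 bases before the start in EXOC3L4, 102 in UCN2 and 231 in AMIGO2. The windows of ABCA12, TNC and LIPG held neither set of letters, which says nothing about sites elsewhere, and no binding was measured here.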

How the data were processed

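Total RNA of 12 cultures was labelled with Cy3 and hybridized to one-color arrays by the authors. The deposited intensities had their background subtracted by Feature Extraction 9.5.3.1, per the file headers, and were not normalized across arrays. A further deposited table holds 44473 entries as log2 values that its name calls quantile-normalized, and it served as an alternative. Groups were taken from the titles. Of 44495 spots per array, 1377 control spots and outlier spots were left out, spots of a probe were averaged, and 33483 of 34127 probes had a value on all arrays. Signals were divided by the array's 75th percentile, set at the common level of 418.8 units, floored at 1 signal unit and then log2-transformed. The floor replaced every scaled value below 1 signal unit, and 11.5% to 16.2% of spots were at or below 0 before scaling. A probe counted as well above background as the software marks it. Precision is limited by having 2 arrays a group.

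Each of 15717 genes entered the fits through a single probe, that of the highest mean among probes measurable on both arrays of a group. Fits with limma 3.58.1 (R 4.3.3) used 6 groups without a block, with Benjamini-Hochberg adjustment over all genes and a threshold of 0.05. Within a slide, deviations of arrays from group means correlated with r between 0.59 and 0.91. With 2 arrays per group these deviations mirror each other, so both slides of a line label give the same r. Such values cannot tell pairing by slide from the difference between the slides of a label. Each slide holds 1 line and 1 replicate number and pairs its arrays, so a fit with the slide as a block (the replicate block) was run as well. The scan of the replicate 1 slides differed from that of the replicate 2 slides. Alternatives were quantile normalization, normexp with an offset of 50, the authors' table, a floor of 5 signal units, no filter on dim probes, outlier spots kept, 1 effect per treatment, the methods' t-test (stated for other assays), and each array or slide left out.

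The 7 genes, the lists of relatives and markers and the tests were chosen with earlier results of these data known. Named genes were the 7 genes, the 3 genes most like each over the 12 arrays (well above background on at least 6), the probes next to them in the order of the smallest difference, and close relatives. CXCL8, CCL20, ZC3H12A and the markers named come from the lists, and which of them to name was chosen after their values were seen. Fits were tested on simulated data. Figures were drawn with matplotlib 3.10.9.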

Additional observations from a re-analysis of the deposited data

How the results depend on the processing

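All 146 recomputed mean differences of the 8 probes kept their sign, and 15 moved by more than 1 SD over the slides, all of them with normexp, in the authors' table, with a floor of 5 signal units or with the other TGM2 probe. The choice of the genes fixes the sign when a slide is left out, and means with outlier spots kept equalled the main ones as rounded. Nothing is therefore read from the kept signs. With normexp the mean Empa difference was -0.36 for ABCA12, -0.46 for UCN2 and -0.30 for EXOC3L4. The replicate block, which reflects the pairing by slide, raised the count of genes changed by IL-1β from 8 to 864 and left the counts for Empa and for the line differences at 0. With 1 effect per treatment in the block these counts were 1955 for IL-1β and 1 for Empa, and with the methods' t-test 46 and 2. For IL-1β the count was 13 with normexp, 3 in the authors' table and 18 with a floor of 5 signal units. Without the filter on dim probes it was 23 for IL-1β, 5 for Empa, 7 and 1 for the line differences in the IL-1β and Empa effects, and 5 for control levels. With 1 array left out, the IL-1β count lay between 0 and 7 and was 0 without either control array of HK-2 or RPTEC/TERT1, either Empa array of HK-2 or the second IL-1β array of RPTEC/TERT1. The number of probes with the pattern was 120 with differences over 0.1, 11 with differences over 1.5-fold, and between 414 and 685 with 1 slide left out, fewest without RPTEC/TERT1 replicate 2 and most without HK-2 replicate 2. A floor of 5 signal units left 7 of the 8 probes in the pattern, since ABCA12 then had no Empa difference on RPTEC/TERT1 replicate 2. The cause of these shifts was not tested.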
